A study of Mus musculus with 2 samples.

Results

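The major histocompatibility complex of the mouse was described here from methylRAD sites in F9 cells, an established embryonal carcinoma line. The members were all sites that either library listed on chromosome 17 between 33980000 and 35400000 (GRCm38), whatever their motif. They numbered 2183 of the 1370254 positions listed over the genome, with 1641 listed in undifferentiated and 1734 in differentiated cells. The interval was divided into 4 stretches. The H2-K stretch (from the start to 34099999) held 273 positions, class II (34100000 to 34399999) held 334, class III (34400000 to 35299999) held 1484 and the distal stretch to the end held 92. These limits are round numbers and cut across gene families. The class II gene H2-Oa (chr17:34092379-34095234) fell in the H2-K stretch, and the class I gene H2-D1 (chr17:35263094-35267497) fell in class III. The interval was defined by position and not by any measured value.

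The study compared 1 library of undifferentiated F9 cells with 1 library of F9 cells at day 4 of differentiation, which was induced with 1 µM retinoic acid in low attachment dishes. Both were grown from the same line, carry the word untreated in their labels and have no replicate. Every test below therefore compares 2 libraries and not the conditions, and no difference has a replicate check. The series concerns the control of pluripotency enhancers and states no question about this locus.

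The locus encodes the proteins that display peptides to T cells. Class I molecules (H2-K1, H2-D1 and the H2-Q genes) display peptides made inside the cell, which the proteasome subunits Psmb8 and Psmb9 help to cut and the Tap1 and Tap2 transporter carries into the endoplasmic reticulum. Class II molecules are pairs of an alpha and a beta chain that are mainly made by specialised antigen-presenting cells, and the class III stretch between them holds complement, cytokine and many housekeeping genes. Embryonal carcinoma cells are known for little or no class I and class II on their surface. MethylRAD uses FspEI, an enzyme that cuts next to methylated cytosines, so reads at a site rise with its methylation. The CCGG motif holds a CpG, whereas the reverse complements CCAGG and CCTGG place the cytosine outside CpG.

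A site was listed only with 5 or more counts, so an unlisted site had 0 to 4 counts and cannot be read as unmethylated. The libraries held 20550450 and 21291239 counts, of which 16687588 and 15705436 were at CCGG sites (undifferentiated and differentiated, in that order here and below). Ratios are log2 of differentiated over undifferentiated counts, each divided by its library's CCGG total, and a site unlisted in 1 library was given 4 counts there. Equal counts therefore gave 0.09. In the interval 99.9% and 100% of sites had a full-match alignment, and the highest count was 85 and 111, against 2909 and 5004 on the whole of chromosome 17. The reference sequence comes from another mouse strain than F9 cells, and whether each motif is present in F9 DNA was not tested.

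The promoters of 8 genes are printed first, because they show what the assay could and could not read at gene starts in this locus. Each runs from 250 bases before to 50 bases after a RefSeq gene start (GRCm38.p6), 5′ to 3′ on the gene's strand, and capitals mark every CCGG, a motif that reads the same on both strands. The first pair are CpG-rich promoters with 7 motifs each. Ring1 encodes a polycomb ubiquitin ligase and Ehmt2 the histone H3 lysine methyltransferase G9a.
Ring1 (chr17:34024631-34024930, minus strand): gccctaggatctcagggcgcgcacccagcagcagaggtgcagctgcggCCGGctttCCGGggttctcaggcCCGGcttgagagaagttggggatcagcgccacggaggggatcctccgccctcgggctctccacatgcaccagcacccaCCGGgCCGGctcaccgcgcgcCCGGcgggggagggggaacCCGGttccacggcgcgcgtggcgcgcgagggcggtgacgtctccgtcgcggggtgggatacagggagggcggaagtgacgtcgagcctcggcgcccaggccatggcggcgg
Ehmt2 (chr17:34898720-34899019, plus strand): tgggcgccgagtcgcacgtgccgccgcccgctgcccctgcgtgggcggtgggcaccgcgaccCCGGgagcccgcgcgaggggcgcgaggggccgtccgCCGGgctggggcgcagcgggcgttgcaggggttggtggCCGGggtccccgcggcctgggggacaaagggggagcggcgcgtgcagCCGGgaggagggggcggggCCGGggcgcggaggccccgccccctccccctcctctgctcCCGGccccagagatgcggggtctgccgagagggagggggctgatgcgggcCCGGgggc
The next pair belong to the classical class I genes, which hold 1 and 2 motifs.
H2-K1 (chr17:34000298-34000597, minus strand): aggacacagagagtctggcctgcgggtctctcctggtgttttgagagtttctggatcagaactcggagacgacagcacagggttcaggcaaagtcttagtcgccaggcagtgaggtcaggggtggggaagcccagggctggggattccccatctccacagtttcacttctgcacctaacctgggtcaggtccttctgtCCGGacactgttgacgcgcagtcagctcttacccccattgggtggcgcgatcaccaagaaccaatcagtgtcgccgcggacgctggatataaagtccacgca
H2-D1 (chr17:35262844-35263143, plus strand): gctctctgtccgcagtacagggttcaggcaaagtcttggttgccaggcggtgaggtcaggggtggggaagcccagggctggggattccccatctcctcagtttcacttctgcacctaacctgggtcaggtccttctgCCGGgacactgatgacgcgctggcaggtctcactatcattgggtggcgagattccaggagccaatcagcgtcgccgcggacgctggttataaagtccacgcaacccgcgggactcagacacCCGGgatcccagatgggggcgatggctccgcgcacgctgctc
The last 4 are CpG-poor promoters in which at least 1 motif was listed. H2-DMb1 encodes the beta chain of the peptide-loading factor H2-DM, Ltb lymphotoxin beta, Ly6g6c a lymphocyte antigen 6 family protein and Apom the apolipoprotein M of high-density lipoprotein.
H2-DMb1 (chr17:34152941-34153240, plus strand): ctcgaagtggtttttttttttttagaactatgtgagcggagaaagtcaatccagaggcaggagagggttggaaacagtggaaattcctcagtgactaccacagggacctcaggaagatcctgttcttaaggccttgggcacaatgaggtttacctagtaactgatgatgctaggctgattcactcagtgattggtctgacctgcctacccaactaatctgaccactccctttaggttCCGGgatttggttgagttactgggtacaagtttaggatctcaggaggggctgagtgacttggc
Ltb (chr17:35194257-35194556, plus strand): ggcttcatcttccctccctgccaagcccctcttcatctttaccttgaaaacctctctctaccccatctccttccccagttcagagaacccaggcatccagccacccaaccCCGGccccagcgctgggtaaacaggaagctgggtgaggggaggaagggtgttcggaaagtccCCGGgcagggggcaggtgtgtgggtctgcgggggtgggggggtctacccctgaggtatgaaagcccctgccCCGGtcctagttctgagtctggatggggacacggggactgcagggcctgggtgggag
Ly6g6c (chr17:35067075-35067374, plus strand): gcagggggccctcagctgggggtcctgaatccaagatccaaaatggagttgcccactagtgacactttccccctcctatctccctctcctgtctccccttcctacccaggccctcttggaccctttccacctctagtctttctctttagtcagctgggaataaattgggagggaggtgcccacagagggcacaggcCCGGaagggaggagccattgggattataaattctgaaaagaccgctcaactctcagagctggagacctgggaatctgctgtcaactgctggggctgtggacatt
Apom (chr17:35131752-35132051, minus strand): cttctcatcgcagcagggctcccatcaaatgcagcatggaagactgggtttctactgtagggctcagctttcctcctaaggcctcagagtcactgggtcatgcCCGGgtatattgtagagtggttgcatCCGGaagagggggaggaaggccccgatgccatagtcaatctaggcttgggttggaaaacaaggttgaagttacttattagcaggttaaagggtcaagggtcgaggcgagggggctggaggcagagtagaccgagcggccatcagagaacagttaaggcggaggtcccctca

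None of the 7 motifs of the Ring1 promoter, the 7 of the Ehmt2 promoter, the 1 of H2-K1 or the 2 of H2-D1 was listed in either library. The H2-DMb1 motif, 13 bases before the start, had 30 counts in undifferentiated and 8 in differentiated cells (log2 ratio -1.82, Fisher's exact test, two-sided, Benjamini-Hochberg exact adjusted p = 0.0073). The Ly6g6c motif, 54 bases before the start, had 17 and 63 counts and moved the other way (log2 ratio 1.98, exact adjusted p = 3.22e-06). In Ltb the motifs 140 and 78 bases before the start had 19 and 23 and 46 and 62 counts, and the motif 7 bases before it was unlisted in undifferentiated cells and had 6 counts in differentiated cells. No Ltb motif passed the test. Both Apom motifs, 121 and 147 bases before the start, were listed in undifferentiated cells at 11 and 16 counts and unlisted in differentiated cells, and neither passed the test (exact adjusted p = 0.261 and 0.0516). The printed promoters thus held sites that were higher, sites that were lower and sites that were below the listing minimum in both libraries.

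Over the whole interval, RefSeq gave 103 promoter windows for 82 genes. A CCGG motif lay in 67.0% of them, against 55.0% on the rest of chromosome 17 and 52.8% over the genome. These windows held 143 different motifs, of which 27 were listed in at least 1 library (18.9%, 95% Wilson interval 13.3 to 26.1), 19 in each. The share was 12.6% on the rest of chromosome 17 and 14.4% over the genome. The H2-K stretch had 21 promoter motifs and 0 listed, which allows a share of up to 15.5%. Class II had 2 of 8 listed and class III 23 of 112. The windows of H2-Aa, H2-Eb1, H2-Eb2, H2-Ob and H2-Oa held no CCGG, so the assay has no CpG site to read there.

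Of the 27 listed motifs, 25 lay in CpG-poor promoters, here those with an observed over expected CpG ratio under 0.6. In CpG-rich promoters 2 of 93 motifs were listed (2.15%, interval 0.592 to 7.51), and in CpG-poor promoters 25 of 50 (50%, interval 36.6 to 63.4). The intervals cover counting error only and do not overlap. The same split held 5.32% and 38.4% on the rest of chromosome 17 and 6.01% and 42.3% over the genome, and the interval's values lay within counting error of these. Both listed motifs of the CpG-rich class were listed in the differentiated library and neither in the undifferentiated one. The H2-K1 and H2-D1 windows had ratios of 0.56 and 0.65 and so fell on opposite sides of the limit, although neither had a listed motif. For comparison, the ratio was 0.91 for Ring1, 0.80 for Ehmt2, 0.23 for Ltb and 0.09 for Ly6g6c.

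**Figure D1:**
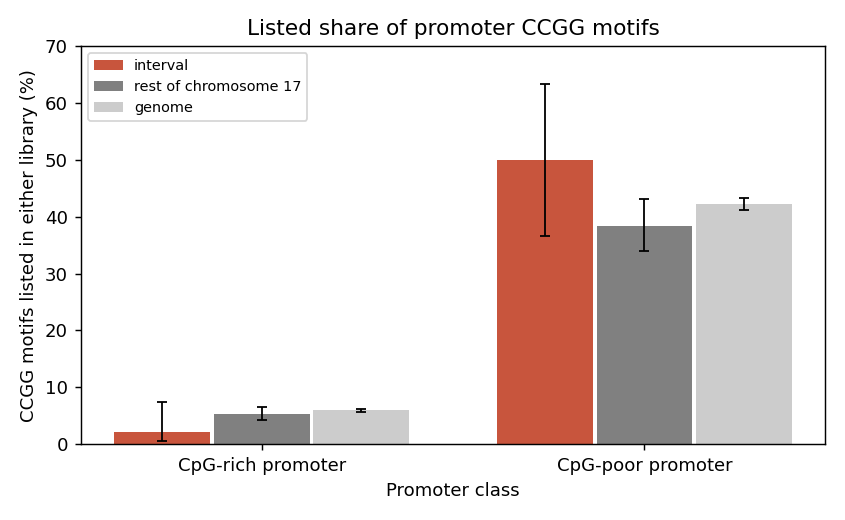
Share of promoter CCGG motifs listed in either library (percent, y axis) by promoter class (x axis) for the interval, the rest of chromosome 17 and the genome, with 95% Wilson intervals as error bars. In all 3 sets the CpG-rich bar is far below the CpG-poor bar, and in the interval the bars stand at 2.15% and 50%.

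Listed CCGG sites were packed more closely in the interval than elsewhere on the chromosome. There were 1131 CCGG sites, or 79.6 per 100 kb, against 36.0 per 100 kb on the rest of chromosome 17, a ratio of 2.21. The H2-K stretch was the densest of the 4 at 102 per 100 kb, followed by class III at 84.0, class II at 64.0 and the distal stretch at 61.0. How many CCGG motifs the genome offers in each stretch was not analysed here, so density of sites and density of methylation cannot be told apart. The counts per site were not higher: the median CCGG site had 17 counts in both libraries, against 19 and 18 on the rest of the chromosome. Within the interval, gene bodies held 0.965 sites per kb and the sequence outside genes 0.507. The same values on the rest of chromosome 17 were 0.462 and 0.263, so the interval had more sites per kb in both kinds of sequence.

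**Figure D2:**
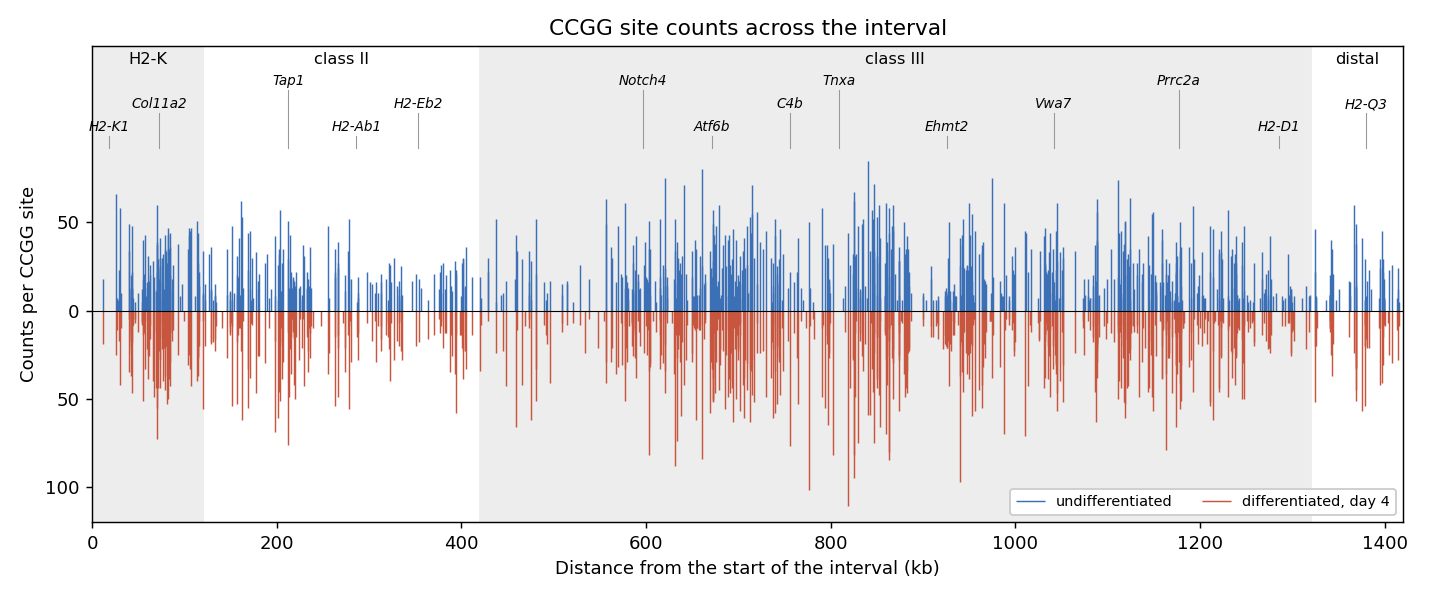
Counts at each tested CCGG site of the interval (y axis, undifferentiated upward and differentiated downward) against distance from the start of the interval in kb (x axis), with the 4 stretches shaded in turn and some genes marked. Sites crowd over Col11a2 and from Atf6b into Tnxb, and thin out around H2-K1 and between H2-Eb2 and Notch4.

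Seen in 100 kb windows, the 14 windows wholly inside the interval held 28 to 141 CCGG sites, with a median of 87, against a median of 30 for the other 903 windows of the chromosome. The window chr17:34600001-34700000 had the most of any window on chromosome 17, with 141 sites over Rnf5, Agpat1, Egfl8, Ppt2, Prrt1, Fkbpl, Atf6b and the start of Tnxb. The window with the fewest in the interval, chr17:34400001-34500000, held 28 sites over the butyrophilin-like genes BC051142 and Btnl4. Of the 14 windows, 6 were higher in differentiated cells and 0 lower (Fisher's exact test on summed counts, adjusted over all windows of the genome), where the genome had 22.7% of its windows higher and 13.4% lower. The largest ratio was in chr17:34700001-34800000, which covers the end of Tnxb, C4b and nearly all of Tnxa, with 1081 and 1443 listed counts (log2 ratio 0.48, exact adjusted p = 8.29e-15). Its 9 sites in Tnxa had 192 and 337 counts, its 4 in C4b 83 and 141 and its 13 in Tnxb 360 and 366. When the libraries were scaled instead by the median ratio of sites, 1 of the 14 windows was higher and 3 were lower, and the window over C4b and Tnxa was the one still higher (log2 ratio 0.33). With the RPM divisor 1 window was higher and 5 were lower, and 2 of the 14 ratios were above 0.

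**Figure D3:**
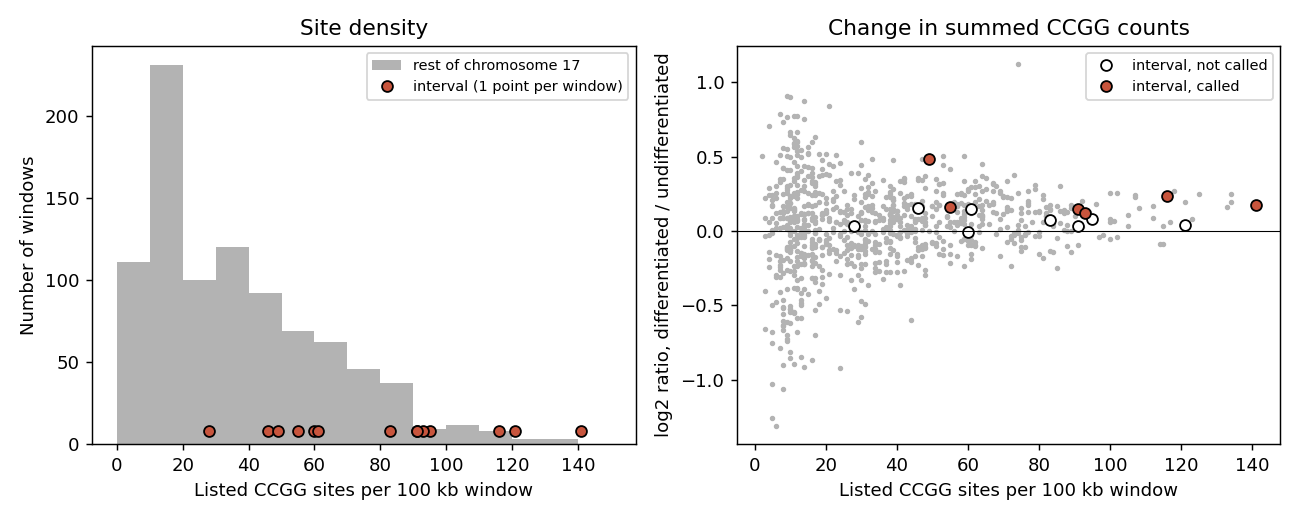
Left, number of 100 kb windows of chromosome 17 (y axis) by their listed CCGG sites (x axis), with the interval's 14 windows as points at an arbitrary height. Right, log2 ratio of summed CCGG counts, differentiated over undifferentiated, against listed sites per window, with the interval's called windows filled. The interval's windows lie at 28 to 141 sites, and their ratios lie between -0.01 and 0.48.

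The summed CCGG counts of the interval were 20759 and 21418, with a log2 ratio of 0.13 (exact p = 1.64e-22 by Fisher's test on the 2 libraries' counts), against 0.09 on the rest of chromosome 17. Class II (3172 and 3259 counts, 0.15, exact p = 1.28e-05) and class III (14198 and 14836 counts, 0.15, exact p = 3.16e-18) had nearly the same ratio, with a difference of 0.01 between them (exact p = 0.807). With sites listed in both libraries alone the difference was 0.10 and passed the test (exact p = 0.0181). The H2-K stretch had 2438 and 2376 counts (0.04, exact p = 0.311), which was nearest to 0 of the 4 on this scaling and farthest from it with scaling by the median ratio (-0.11, exact p = 0.0054) and by the RPM divisor (-0.18, exact p = 7.25e-06). No pair of the 4 stretches passed the test of the difference between their ratios, adjusted over the 6 pairs (smallest exact adjusted p = 0.116, exact test). All of these ratios are small against the choice of scaling. Scaling by the median ratio of sites lowers every log2 ratio by 0.16 and scaling by the divisor behind the deposited RPM values lowers it by 0.23, and under these the interval stood at -0.02 and -0.09. With scaling by the rest of chromosome 17 instead, the interval (0.05, exact p = 6.69e-05 by Fisher's test), class II (0.07) and class III (0.06) stayed positive. The direction of differences of this size therefore depends on the scaling and is not settled.

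Single sites moved in both directions. Of 1067 CCGG sites tested in the interval, 115 were higher in differentiated cells (10.8%) and 81 lower (7.59%). Over the genome 11.6% were higher and 11.9% lower, and on the rest of chromosome 17 12% were higher and 11.3% lower. On this scaling the share of higher sites was thus near the background and the share of lower sites was below it. These genome shares are also the background for the called sites of single genes below. In class III 88 of 716 sites were higher and 57 lower, in class II 16 of 178 higher and 15 lower, in the H2-K stretch 5 of 118 higher and 7 lower, and in the distal stretch 6 of 55 higher and 2 lower. Of the called sites, 58.7% were higher, which became 43.0% with scaling by the median ratio (80 higher and 106 lower) and 36.4% with scaling by the RPM divisor (72 and 126). Genome shares under these scalings are not given here. The unlisted state took part in these calls: 26 of the higher sites were unlisted in undifferentiated cells and 27 of the lower ones in differentiated cells. Among the 318 sites with 20 or more counts in both libraries, the log2 ratio had an SD of 0.59, where counting error alone gives 0.35, and the rest of the chromosome had 0.60 and 0.35. The exact tests on sites and on summed counts allow for counting error alone. Their p-values are therefore smaller than this spread between the libraries warrants.

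Among the class I genes, H2-K1 (chr17:33996012-34000619) and H2-D1 had 0 listed CCGG sites in their gene bodies in both libraries. H2-K1 lay within the longest stretch of the interval without a listed CCGG site, 13987 bases from 33991737 to 34005723, which held 1 non-CpG site. The distal genes H2-Q1 and H2-Q2 had sites. H2-Q1 had 171 and 125 counts over 11 sites (log2 ratio -0.23, exact adjusted p = 0.294). H2-Q2 had 29 counts over 3 sites in undifferentiated cells and no listed site in differentiated cells (exact adjusted p = 0.0514). Neither passed the test, where 21.3% of gene bodies were higher and 13.4% lower over the genome, and their median log2 ratio was -0.71, against 0.06 over all 31160 gene bodies tested in the genome. H2-Q2 was called lower with scaling by the median ratio (-1.34, exact adjusted p = 0.0245) and by the RPM divisor (-1.41, exact adjusted p = 0.0142), and H2-Q1 with the RPM divisor (-0.46, exact adjusted p = 0.0189). H2-Q4, a class I gene outside the list, had 41 and 16 listed counts over 9 sites and was not called. H2-Q3, a class I pseudogene, was higher in differentiated cells, with 49 and 126 counts over 6 sites (log2 ratio 1.23, exact adjusted p = 9.28e-07). Of its 6 sites, neighbours 8 to 12 bases apart carried equal counts (6 and 20 at a pair of them), so the same reads may be counted at both. Class I genes are near-identical copies of each other and how the authors placed reads with several matches is not given in the sources used here, so both the empty gene bodies and the counts of the H2-Q genes are uncertain.

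The classical class II genes encode the chains of the H2-A and H2-E molecules. None of the 5 that lie in the interval passed the test on the gene body, where 21.3% of gene bodies over the genome were higher and 13.4% lower. H2-Ab1, the beta chain of H2-A, had 46 and 61 counts over 6 sites, and its alpha chain H2-Aa had 41 and 52 over 3. H2-Eb1, the beta chain of H2-E, had 121 and 129 counts over 8 sites, and it held a site with 9 and 28 counts that was higher (exact adjusted p = 0.0072) and a site with 17 counts that was unlisted in differentiated cells and called lower (exact adjusted p = 0.0362). H2-Eb2, a related beta chain gene, had 74 and 38 counts over 5 sites (log2 ratio -0.48), and H2-Ea, annotated as a transcribed pseudogene, had 6 and 16 at 1 site. The median log2 ratio of the 5 was 0.43, and 4 of the 5 were above 0. With sites listed in both libraries alone, H2-Ab1 passed the test (log2 ratio 0.94, exact adjusted p = 0.0143), and with the RPM divisor H2-Eb2 was called lower (-0.70, exact adjusted p = 0.0257). The classical genes were thinly covered, with 0.565 sites per kb of gene body, against 0.970 over all 133 genes of the interval.

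The nonclassical class II genes encode H2-DM, which loads peptides onto class II, and H2-O, which restrains H2-DM. All 5 were tested and 0 were called, against 21.3% higher and 13.4% lower over the genome, with a median log2 ratio of 0.06 and a range from -0.05 to 0.29. H2-Oa had 152 and 145 counts over 6 sites in 2856 bases, which made it the most heavily covered gene of the class I, class II and antigen processing lists (53.2 and 50.8 counts per kb). H2-Ob had 76 and 69 counts and H2-DMb2 137 and 132. H2-DMb1 had 74 counts over 5 sites and 73 over 2, with a log2 ratio of 0.29 once unlisted sites were given 4 counts, and of 0.63 with sites listed in both libraries alone (exact adjusted p = 0.0533). H2-DMa, whose annotated body spans 19409 bases and overlaps Brd2, had 290 and 255 counts over 21 sites. Within it, a site with 20 and 53 counts was higher (exact adjusted p = 5.87e-04), 1 with 41 and 8 counts was lower (exact adjusted p = 1.28e-04) and 1 with 19 counts that was unlisted in differentiated cells was lower (exact adjusted p = 0.0172), so sites that moved in opposite directions summed to a ratio of -0.05.

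The antigen processing genes lie side by side in class II, and 2 of 4 were higher in differentiated cells and 0 lower, against 21.3% higher and 13.4% lower over the genome. Psmb8 (chr17:34198195-34201454) had 85 and 150 counts over 6 sites (log2 ratio 0.91, exact adjusted p = 4.37e-05). Of these sites 2 were called higher: the site 338 bases into the gene had 16 and 42 counts (exact adjusted p = 0.0033), and the site 2024 bases into it had 14 and 50 counts (exact adjusted p = 6.74e-05). The other 4 sites had 8 to 22 counts in undifferentiated and 12 to 16 in differentiated cells and did not pass the test. Psmb9 (chr17:34182030-34187330) had 204 and 246 counts over 8 sites (log2 ratio 0.33, exact adjusted p = 0.0481), a call that was lost with either other scaling (exact adjusted p = 0.335 and 0.583) and with sites listed in both libraries alone (exact adjusted p = 0.182). A site 1589 bases into Psmb9 was unlisted in undifferentiated cells and had 20 counts in differentiated cells.

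Tap1, which lies between Psmb9 and Psmb8, had 232 and 249 counts over 12 sites and Tap2, on the far side of Psmb8, 226 and 202 over 14, and neither passed the test. Tap1 nevertheless held the class II site with the largest ratio, chr17:34193591-34193594, with 7 and 49 counts (log2 ratio 2.89, exact adjusted p = 2.53e-07), 4604 bases before the start of Psmb8. The class II site with the highest summed count, chr17:34191761-34191764, was also in Tap1, with 51 and 76 counts (exact adjusted p = 0.0517). When 2 kb before the start was added to each gene body, the Psmb8 call was lost (log2 ratio 0.32, exact adjusted p = 0.0821) and Tap1 was called higher (0.32, exact adjusted p = 0.0158). The 2 kb added to Tap1 lie mostly within the body of Psmb9, and those added to Psmb8 take in the end of Tap1. The Tap1 call thus drew on Psmb9 sites, among them the site with 20 counts in differentiated cells alone.

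**Figure D4:**
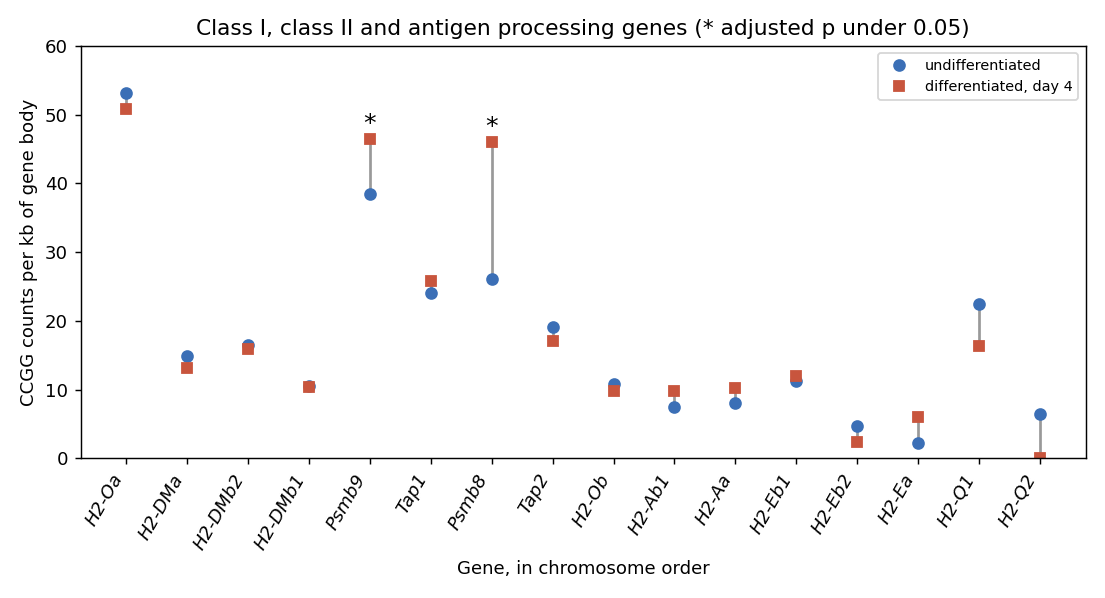
CCGG counts per kb of gene body (y axis) in undifferentiated (circles) and differentiated cells (squares) for the class I, class II and antigen processing genes with a listed CCGG site, in chromosome order (x axis). Asterisks mark Psmb9 and Psmb8, the 2 genes with an adjusted p under 0.05, and most other pairs of points lie close together.

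The neighbours of class II known as the extended class II genes hold the densest coverage of the 13 gene lists, 1.63 sites per kb of gene body. Of the 6 in the interval, 5 were tested and 3 were higher and 0 lower, against 21.3% higher and 13.4% lower over the genome, with a median log2 ratio of 0.37. None of the 3 kept its call with either other scaling. Col11a2, a collagen chain of cartilage, had 59 CCGG sites, with 1229 and 1367 counts (log2 ratio 0.23, exact adjusted p = 3.12e-04). Of these sites 5 were called higher and 4 lower, where 11.6% of sites over the genome were higher and 11.9% lower. Among the higher ones was chr17:34052515-34052518, which was unlisted in undifferentiated cells and had 23 counts in differentiated cells, at least 6.11-fold higher. Ring1, whose promoter motifs were all unlisted, had 167 and 224 counts over 13 sites of its body and 101 summed counts per kb (log2 ratio 0.41, exact adjusted p = 0.0172). That call was also lost with sites listed in both libraries alone. Brd2, which encodes a bromodomain protein that binds acetylated histones, had 37 and 63 counts over 5 sites (log2 ratio 0.71, exact adjusted p = 0.0425), and this call too was lost with sites listed in both libraries alone. Rxrb, a retinoid X receptor, had 151 and 148 counts and did not pass the test. The class II pseudogene H2-Pa was lower, with 155 and 96 counts over 6 sites (log2 ratio -0.64, exact adjusted p = 0.0031). It held the site with the smallest ratio of the H2-K stretch, chr17:34084661-34084664, with 43 and 5 counts (exact adjusted p = 3.44e-06).

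In class III, the complement genes and the tenascin genes beside them stand in a duplicated segment. C4b, the fourth complement component, had 83 and 141 counts over 4 sites (log2 ratio 0.85, exact adjusted p = 1.79e-04). A single site carried that difference, 7376 bases from one end of the gene, with 22 and 77 counts (exact adjusted p = 5.72e-07), and the other 3 had 13 to 32 and 13 to 34 counts. The copy C4a, annotated as a transcribed pseudogene, had 319 and 302 counts over 10 sites and was not called. Cfb (177 and 202) and C2 (157 and 174), which encode proteases of complement activation, did not pass the test either, so 1 of 4 complement genes was higher and 0 lower, against 21.3% higher and 13.4% lower over the genome.

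Tnxb, the extracellular matrix protein tenascin XB, had 75 sites with 1615 and 1762 counts (log2 ratio 0.21, exact adjusted p = 1.95e-04). Of its 73 tested sites 11 were higher and 4 lower, where 11.6% of sites over the genome were higher and 11.9% lower. The call of the Tnxb gene body was lost with either other scaling, and its ratio was 0.05 with the median ratio and -0.02 with the RPM divisor. Its truncated copy Tnxa had 218 and 381 counts over 10 sites (log2 ratio 0.91, exact adjusted p = 7.00e-12). In Tnxa 3 sites were called, with 30 and 65, 38 and 82, and 44 and 111 counts, all higher in differentiated cells, and the last was the highest count of the interval. C4b with C4a, Tnxb with Tnxa, and Cyp21a1 (53 and 55 counts) with Cyp21a2-ps (98 and 107 counts) are near-identical copies. Reads could be placed at the wrong copy, and the values of each copy are uncertain.

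The tumour necrosis factor family gave a mixed picture. Tnf, an inflammatory cytokine, had 74 and 111 counts over 5 sites (log2 ratio 0.52, exact adjusted p = 0.0425), with no single site called. Lta, lymphotoxin alpha, had 36 and 13 counts over 2 sites (log2 ratio -1.38, exact adjusted p = 0.0104), and the site 1695 bases into it fell from 29 to 6 counts (exact adjusted p = 0.0018). Ltb had no listed site in its body in undifferentiated cells and 13 counts at 2 sites in differentiated cells, and was not called. Of these 3 adjacent genes, then, 1 was higher and 1 lower, against 21.3% higher and 13.4% lower over the genome, and the Tnf call was lost with either other scaling.

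The lymphocyte antigen 6 genes encode small proteins of the cell surface, and 3 of 6 were lower and 1 higher, where 13.4% and 21.3% were so over the genome, with a median log2 ratio of -0.31. Ly6g6c had 233 and 139 counts over 9 sites (log2 ratio -0.58, exact adjusted p = 0.0010). In its body, a site with 39 and 5 counts and another with 56 and 19 were lower, 1 with 9 and 29 was higher, and its promoter site printed above was higher as well. With 2 kb added before the start, the Ly6g6c call (log2 ratio -0.08, exact adjusted p = 0.664) and the Ly6g6f call were lost, which leaves 1 lower gene, and with sites listed in both libraries alone the Ly6g6e call was lost, which leaves 0 higher. Ly6g6f (35 and 13 counts) and Ly6g6e (unlisted, then 16 counts) each rested on 1 site. The Ly6g6e site also lies in the overlapping Ly6g6d, which had 31 and 32 counts and was not called. Ly6g5c had 59 and 33 counts over 3 sites (exact adjusted p = 0.0476), and no single site of it was called. Its sites with 27 and 13 and with 20 and 8 counts lay within 16 bases of each other, so the same reads may be counted at both.

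Genes for chromatin and transcription factors included 3 higher and 0 lower of 7, against 21.3% higher and 13.4% lower over the genome, with a median log2 ratio of 0.38. With the RPM divisor Atf6b and Ehmt2 were higher and Notch4 lower. Ehmt2 had no listed promoter motif, but its body had 250 and 348 counts over 24 sites (log2 ratio 0.52, exact adjusted p = 8.94e-05), 5 of them called, all higher. Atf6b, an endoplasmic reticulum stress factor, had 394 and 526 counts over 19 sites (log2 ratio 0.46, exact adjusted p = 1.99e-05), and 5 of its sites were higher and 1 lower. One of these, chr17:34651053-34651056, was unlisted in undifferentiated cells and had 33 counts in differentiated cells, at least 8.77-fold higher and the largest ratio among the called sites of class III. Nfkbil1 had 183 and 231 counts (log2 ratio 0.38). Notch4, a receptor of endothelial cells, had 498 and 465 counts over 29 sites and was not called.

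The butyrophilin-like genes, relatives of immune coreceptors, were sparsely covered at 0.437 sites per kb, and 1 of 7 was higher and 0 lower, against 21.3% higher and 13.4% lower over the genome. With scaling by the median ratio Btnl5-ps and Btnl7-ps were called lower, and with the RPM divisor they were lower and Btnl4 was not called, which makes 0 higher and 2 lower. BC051142 and Btnl4 were higher and Btnl6 lower with sites listed in both libraries alone. Btnl4 had 49 and 82 counts over 4 sites, among them a site 1294 bases into the annotated body with 17 and 41 counts (exact adjusted p = 0.0071). This site lay 200 bases before the start used for the Btnl4 promoter window. The site of class III with the smallest ratio, chr17:34417514-34417517 in BC051142, had 52 counts in undifferentiated cells and was unlisted in differentiated cells, at least 12.2-fold lower. Neither heat shock gene with listed sites was called, against 21.3% higher and 13.4% lower over the genome. Hspa1a had 20 and 10 counts and Hspa1l 99 and 80. Hspa1a was called lower with either other scaling and with sites listed in both libraries alone. Hspa1b, a near-identical copy of Hspa1a, had no listed CCGG site.

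Among the other immune genes of class III, Lst1, a leukocyte transcript, was unlisted in undifferentiated cells and had 25 counts at 2 sites in differentiated cells, and Aif1, a macrophage protein, had 88 and 51 counts and was lower (log2 ratio -0.70). Of the 27 remaining class III genes that were tested, 6 were higher and 3 lower, shares near the 21.3% and 13.4% over the genome, with a median log2 ratio of 0.11. With scaling by the median ratio 2 were higher (Agpat1 and Prrc2a) and 5 lower, and with the RPM divisor the same 2 were higher and 8 lower. Prrc2a had 374 and 607 counts over 30 sites (log2 ratio 0.65, exact adjusted p = 1.28e-10), with 5 sites higher and 2 lower. Agpat1, an acyltransferase of phospholipid synthesis, had 132 and 218 counts over 10 sites (log2 ratio 0.65). Vwa7 had 355 and 409, Bag6, a chaperone, 325 and 379, and Gpank1 68 and 107, shared in full with the overlapping Gm20522.

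The 3 lower genes of that group were Rnf5, Apom and Ddx39b. Rnf5, a membrane-bound ubiquitin ligase, had 45 counts over 4 sites and 7 counts at 1 site (log2 ratio -1.16, exact adjusted p = 0.011). No single Rnf5 site was called. Its sites with 19, 14 and 7 counts in undifferentiated cells each lay within 16 bases of the next, so the same reads may be counted more than once. Ddx39b, an RNA helicase of messenger RNA export, had 113 and 38 counts over 9 sites (log2 ratio -0.83, exact adjusted p = 0.0015), and the site with 33 counts in undifferentiated cells was unlisted in differentiated cells (exact adjusted p = 5.60e-05). Apom had 42 and 8 counts in its body (log2 ratio -1.30, exact adjusted p = 0.0070), next to the promoter motifs that were listed in undifferentiated cells alone. With sites listed in both libraries alone all 3 lost their call: Rnf5 stood at -1.35 (exact adjusted p = 0.0787), Ddx39b at -0.24 (exact adjusted p = 0.687) and Apom at -1.23 (exact adjusted p = 0.0929). Skiv2l, a helicase of RNA decay, had one of the highest levels per kb (544 and 522 counts over 17 sites) with a log2 ratio of 0.02 and 2 sites higher and 4 lower, and it was called lower with the RPM divisor (-0.21, exact adjusted p = 0.0456).

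Some named features have no known protein product. Gm18733, a pseudogene near H2-D1, had 20 and 50 counts over 2 sites (log2 ratio 1.41, exact adjusted p = 0.0012), and the pseudogene Gm8696 had 75 and 38 counts at 1 site (log2 ratio -0.89, exact adjusted p = 0.0082). Mir8094, a microRNA gene within Ddx39b, had the highest summed count per kb because its 117 bases hold 1 site with 21 and 17 counts. Other sites at the extremes lay outside genes. In class II, chr17:34108463-34108466 had 36 counts in undifferentiated cells and was unlisted in differentiated cells, at least 8.47-fold lower. In the distal stretch, chr17:35348750-35348753 had 13 and 45 counts (exact adjusted p = 2.08e-04) and chr17:35374629-35374632 had 29 and 10 (exact adjusted p = 0.0293).

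The site with the highest summed count of each stretch had counts in both libraries. In the H2-K stretch it was chr17:34050474-34050477 in Col11a2, with 60 and 73 counts. In class III it was chr17:34640535-34640538, outside genes and 4279 bases before the start of Fkbpl, with 80 and 84 counts. In the distal stretch it was chr17:35304305-35304308 in Gm18734, with 46 and 52 counts. In class II it was the Tap1 site described above, with 51 and 76 counts. None of these 4 passed the test, whereas the Tnxa site with 44 and 111 counts, close behind the class III site in summed count, was called higher.

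Of the 99 gene bodies of the interval that were tested, 23 were higher and 10 lower, shares near the 21.3% and 13.4% over the genome. With scaling by the median ratio 12 were higher and 17 lower, and with scaling by the RPM divisor 11 and 23. The genome shares are from scaling by CCGG totals and are not given for these scalings, so these counts have no background here. Both scalings lower every log2 ratio, which favours lower calls, and all 10 lower genes kept theirs. Of the higher genes, 11 kept their call under both: Agpat1, Atf6b, C4b, Ehmt2, Gm18733, H2-Q3, Lst1, Ly6g6e, Prrc2a, Psmb8 and Tnxa. With 2 kb added before the start and with sites listed in both libraries alone as further settings, 8 higher genes (the same list without Lst1, Ly6g6e and Psmb8) and 4 lower genes (Gm8696, H2-Pa, Lta and Ly6g5c) were called throughout. Sites within 16 bases of each other were not merged in these gene sums, which bears on H2-Q3 and Ly6g5c. With 2 kb added, the calls of Psmb8, Tnf, Aif1, Apom, Ly6g6c and Ly6g6f were lost, and D17H6S53E, Egfl8, Ltb and Tap1 were called higher and BC051537, Fkbpl and Gm31082 lower. The added 2 kb can lie in a neighbouring gene, as they did for Tap1 and Psmb8. With sites listed in both libraries alone, 10 of the higher genes lost their call (Bag6, Brd2, Gm20522, Gpank1, Lst1, Ly6g6e, Psmb9, Ring1, Tnf and Vwa7), as did 3 of the lower genes (Apom, Ddx39b and Rnf5). BC051142 and H2-Ab1 were then called higher and Btnl6, Hspa1a and Vars lower.

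Sites outside CpG took a larger share of counts here than on the rest of the chromosome when all listed sites were used, and the gap narrowed away from CCGG. CCAGG and CCTGG together held 28.7% of the interval's counts in undifferentiated cells (interval 28.2 to 29.2) and 32.4% in differentiated cells (31.8 to 32.9), against 20.8% and 27.4% on the rest of chromosome 17. The H2-K stretch had the largest share, 36.5% and 41.0%, and differed from each of the other 3 stretches in both libraries (Fisher's exact test on counts, adjusted over 6 pairs, highest exact p = 1.19e-19). Class III had 28.2% and 32.1%, class II 27.0% and 28.5%, and the distal stretch 18.9% and 23.4%. Listed non-CpG sites lay close to CCGG sites, at a median distance of 130 bases, and 168 of 1052 lay within 16 bases, where the same reads can be counted at both motifs. These held 35.5% and 34.1% of the interval's non-CpG counts, and 42.1% and 38.6% of those in the H2-K stretch. With non-CpG sites more than 100 bases from a listed CCGG alone, the share was 13.6% and 16.99% in the interval against 10.4% and 16.5% on the rest of the chromosome. The H2-K stretch then had 13.97% and 18.7%, class II 15.3% and 16.6%, class III 13.7% and 17.4% and the distal stretch 6.03% and 6.79%, so in undifferentiated cells the H2-K share was no longer the largest.

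The share rose less in the interval than elsewhere. It rose by 3.65 percentage points (exact p = 1.64e-22) against 6.59 on the rest of the chromosome, with odds ratios of 1.19 (interval 1.15 to 1.23) and 1.44 (1.43 to 1.45), which do not overlap. With sites listed in both libraries alone the rise was smaller, 1.45 points in the interval, 1.34 in class III and 2.40 on the rest of the chromosome, with odds ratios of 1.08 (1.04 to 1.12) for the interval and 1.17 (1.16 to 1.18) for the rest. The H2-K stretch rose by 4.54 points (exact p = 3.77e-05), class III by 3.94 (exact p = 2.43e-18) and the distal stretch by 4.53 (exact p = 0.0070). Class II, at 1.41 points, did not pass the test (exact p = 0.142), and the odds ratios of class II (0.978 to 1.18) and class III (1.16 to 1.26) overlap. The difference between stretches in this change was not tested. More than 100 bases from any listed CCGG there were 585 non-CpG sites, of which 335 and 424 were listed in each library and 174 in both, and their summed counts had a log2 ratio of 0.51, against 0.86 on the rest of the chromosome. The 3 with the most counts were chr17:34699693-34699697 in Tnxb, a CCTGG with 54 and 37 counts, chr17:34755957-34755961, a CCTGG outside genes with 24 and 58, and chr17:34189526-34189530 in Tap1, a CCAGG with 23 and 45. Only the first of these was lower in differentiated cells, and single non-CpG sites were not tested.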

How the data were processed

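Per the labels' protocols, FspEI fragments of genomic DNA were size-selected on a gel before adaptor ligation. The submitters' processing notes name FastQC 0.11.3, Bowtie2 2.3.3 and GRCm38. The treatment of reads with several matches is not given in the sources used here. Each site has a whole-number read count, deposited by the authors and never below 5. The deposited RPM column was used as a score, since its sums (9249232 and 8703649) are not those of reads per library total, and gave 1 alternative scaling through its divisors (2221852 and 2446243). At 5710 of 39736 CCGG motifs in RefSeq promoter windows a listed position matched the motif's first base, so RefSeq gene positions of that build were used. Exons and introns were not used here.

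CCGG counts of sites, gene bodies and 100 kb windows were set against the library's CCGG total with a two-sided exact test of Fisher, for summed counts of at least 10, 20 and 50. Benjamini-Hochberg adjustment ran over the whole genome with a threshold of 0.05. Python 3.11.15, numpy 2.4.6, scipy 1.17.1, pandas 2.3.3 and matplotlib 3.10.9 were used. The tests were run on simulated counts that vary by counting error alone. That check does not cover the wider spread between these libraries. Intervals (95% Wilson, and Wald for odds ratios) cover counting error only. Members, gene lists and the rule for named genes were chosen with earlier results of these data known. The rule took all genes of the class I, class II and antigen processing lists and the 8 other genes with most counts per kb. Of the other genes called with a summed count of at least 50, it took the 4 largest and 4 smallest ratios. The extreme sites of each stretch were taken as well. Other genes named in the text were chosen after their values were seen, as called or not called members of the lists.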

Additional observations from a re-analysis of the deposited data

How the results depend on the processing

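No paired analysis was possible because each group has 1 library, and for the same reason no replicate could be left out. Alternatives that need a genome sequence were not run. Promoter alternatives were chosen after seeing the data. With scaling by the median ratio the CCGG log2 ratio was -0.021 for the interval, -0.11 for the H2-K stretch, -0.0016 for class II, -0.011 for class III and -0.0107 for the distal stretch. With the RPM divisor these were -0.091, -0.18, -0.072, -0.0813 and -0.0808. With scaling by the rest of chromosome 17 the interval (0.054), class II (0.074) and class III (0.064) stayed positive. They passed Fisher's exact test on that scaling (exact p = 6.69e-05, 0.0368 and 9.51e-05). The H2-K stretch then stood at -0.039 and the distal stretch at 0.065. The distal ratio also lost its call with unlisted sites as 0 (0.081) and without the 1000 highest CCGG sites (0.11). The class II minus class III difference was -0.024 with unlisted sites as 0, -0.00010 without the highest site and 0.10 with sites listed in both libraries alone, where it passed the test (exact p = 0.0181). The site calls became 72 higher and 126 lower with the RPM divisor, and 162 higher and 127 lower with unlisted sites as 0. Sites per 100 kb became 49.3 in class II and 62.2 in class III at 10 counts or more, and 55.0 and 91.0 with their boundary moved 100 kb to the right. The non-CpG share of class II passed the test at 10 counts or more (2.04 points). In CpG-poor promoters the listed share was 33.8% with a CpG limit of 0.8 and 30.0% at 10 counts or more.

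Single ratios also changed sign. Of the 99 tested genes, 16 went from above to below 0 with the median ratio, none of them called with CCGG totals, and 27 with the RPM divisor, of which 1, Tnxb (-0.02), had been called higher. Among the genes and sites recomputed singly, those that changed with the median ratio were H2-Oa (-0.10), H2-DMb2 (-0.079), H2-Ob (-0.13) and Skiv2l (-0.14). With the RPM divisor they were chr17:34640535-34640538 (-0.068), H2-Oa (-0.17), H2-DMb2 (-0.15), Tap1 (-0.014), H2-Ob (-0.20), H2-Eb1 (-0.0024) and Skiv2l (-0.21). With sites listed in both libraries alone they were H2-DMa (0.056), Tap2 (0.17) and H2-Eb2 (0.050), and H2-Q2 gave no value. With 2 kb added before the start they were H2-DMb2 (-0.10) and H2-DMb1 (-0.089). With 1 library each, counting error is the only error known, and low counts limit most sites.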
